A study of Homo sapiens with 12 samples.

Results

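Glycolysis, the pentose phosphate pathway and the citrate cycle were followed through 51 genes, chosen by name from their textbook roles and matched to the gene symbols of the deposited tables. The choice was made with earlier results of these data known, so it is not independent of them. RNA had been sequenced in 12 libraries of KKU-213A, a human cholangiocarcinoma (bile duct cancer) line, labelled as mixed papillary and non-papillary. The 4 groups had 3 libraries each. Lactic acidosis cells grew in low-glucose medium at pH 6.7 that held 25 mM L-lactate plus the buffer HEPES, also at 25 mM, and had been moved to it stepwise. Lactosis cells had 25 mM L-lactate at pH 7.4, and acidosis cells had 25 mM HEPES at pH 6.5. Control cells grew in the low-glucose medium without either addition. The treated media had been used for 5 passages or more, and neither a passage number nor a pH is given for control cells. HEPES was in both acid media, so acid cannot be told apart from the buffer, and treatment cannot be told apart from time in the medium. All cells were 1 line. Nothing states that replicate libraries were grown separately, so p-values reflect only how libraries spread, which may be technical in origin. In bulk RNA, fewer cells with a transcript and less of it per cell cannot be told apart.

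Each deposited table sets 1 treatment against the same control libraries and lists only genes whose posterior probability of being equally expressed was at most 0.05. Of the 51 members, 22 were in at least 1 table and 29 were in none. A member absent from a table was not measured there, so nothing is known here of whether it changed. Lactic acidosis had 19 members, lactosis 9 and acidosis 6, of 4279, 3087 and 1721 genes in those tables. All 3 tables listed 3 members, exactly 2 tables listed 6, and 1 table listed 13. Glycolytic enzymes had 8 of 15 members in a table, the enzymes that set fructose-2,6-bisphosphate had 2 of 3, the pentose phosphate pathway had 3 of 6, and the citrate cycle with the malic enzymes had 9 of 21. None of the 6 members grouped as pyruvate entry to the mitochondrial pathways was in a table.

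Glycolysis splits glucose to pyruvate in the cytosol, and its pace is set largely at hexokinase, phosphofructokinase and pyruvate kinase. Fructose-2,6-bisphosphate, made and removed by the PFKFB enzymes, activates phosphofructokinase. The pentose phosphate pathway branches off after hexokinase; its oxidative arm yields NADPH and its non-oxidative arm interconverts sugar phosphates and supplies ribose for nucleotides. The citrate cycle oxidises acetyl groups from pyruvate, and lactate can enter it once oxidised to pyruvate. Tumour cells often keep glycolysis high in the presence of oxygen.

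The per-library values are length-scaled expression values, which can be compared between genes, and whether they are TPM or FPKM is not stated. Library totals are not given, so depth is unknown; the authors' mean normalized count of a listed member lay between 56.1 for ENO2 in lactic acidosis and 113739 for GAPDH in control. In the lactic acidosis table treated over control was 0.114 higher on the log2 scale by the per-library values than by the authors' size factors, in the median over all listed genes, against 0.034 in lactosis and 0.013 in acidosis. Fold changes given below as the authors' are free of that shift. Control replicate 1 carried a fitted library weight of 1, against 0.767 to 0.799 in control replicates 2 and 3, so its values lie low. Over the members of a table, the median coefficient of variation was 2.82% to 5.95% in the treated libraries and 18.7% to 19.1% in the control libraries. Of 10 markers of bile duct and other epithelium, 4 were listed in lactic acidosis, in both directions, and the others were not measured there. SOX9 averaged 34.1 in lactic acidosis and 12 in control, CDH1 108 and 81.3, MUC1 0.337 and 1.97, and KRT19 2892 and 3791; limma called all but KRT19 (adjusted p = 0.00183, 0.0288, 0.000449 and 0.09). Of 8 mesenchymal, 8 hepatocyte and 7 leukocyte and endothelial markers, 1 of each list was in that table and rose. These were VIM, 9.47 against 3.81, SERPINA1, 10.0 against 5.94, and CD68, 46.1 against 30.3 (limma adjusted p = 0.000687, 0.00617 and 0.00482). In lactosis KRT19 and MUC1 were listed lower, and limma called MUC1 alone (adjusted p = 0.0063). In acidosis VIM, 6.33 against 3.81, and PECAM1, 0.957 against 0.30, rose (limma adjusted p = 0.0112 and 0.0155), and CDH1 was listed lower without passing (0.0878). What these markers have to do with the members was not tested.

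Lactic acidosis was compared with control first. Among the members that passed limma, the cells had more RNA for PFKP, PFKFB2 and PFKFB3, the phosphofructokinase step and its activators. RPIA, DLST of the citrate cycle and the malic enzyme ME1 were also higher. The cells had less RNA for ALDOC at the aldolase step of glycolysis and for GAPDH and ENO2 below it. TKT in the pentose phosphate pathway and the isocitrate dehydrogenase genes IDH2 and IDH3B were also lower. By the authors' calls 10 members were higher and 9 lower, where 58.9% of all listed genes were higher and 41.1% lower. The median log2 fold change of the members was 0.19, against 0.37 over all listed genes, and its median size was 0.46 against 0.67. Of the 19, 12 passed limma on the per-library values, 6 higher and 6 lower; in all, 86.1% of the listed genes passed, 55.3% higher and 30.8% lower. The libraries of the groups did not overlap for 17 of the 19 members, as for 90.2% of the table. Because the genes were listed on these same libraries, limma describes their spread and adds no independent evidence. Only ALDOC and ENO2 changed at least 2-fold, and 26.2% of the table did.

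In lactosis the listed members were mostly lower. Those that passed limma were RPIA and PFKFB2, which rose, and ALDOC, TKT and IDH2, which fell. PKM was listed higher, and PFKL, ALDOA and GAPDH lower, without passing. The authors listed 3 members higher and 6 lower, where 59.3% of all listed genes were higher and 40.7% lower. The median log2 fold change was -0.34 over the members and 0.35 over all listed genes. By limma 5 of the 9 passed, 2 higher and 3 lower, against 77.7% of the table, with 46.5% higher and 31.2% lower. The libraries did not overlap for 7 of the 9, as for 84.0% of the table. Only ALDOC changed at least 2-fold, as did 20.9% of the table.

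In acidosis RPIA rose, and ALDOC and PFKFB2 fell, by limma. PGD, IDH3A and SDHA were listed without passing. The authors listed 3 members higher and 3 lower, where 61.1% of all listed genes were higher and 38.9% lower, and the medians were -0.08 over the members and 0.32 over all listed genes. By limma 3 of the 6 passed, 1 higher and 2 lower, against 60.0% of the table, with 35.9% higher and 24.2% lower. The libraries did not overlap for 4 of the 6, as for 75.5% of the table. Only ALDOC changed at least 2-fold, where 12.5% of the table did. The 3 treatments share their control libraries, so an ALDOC or RPIA listing in 1 table does not stand independently of the others.

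**Figure D1:**
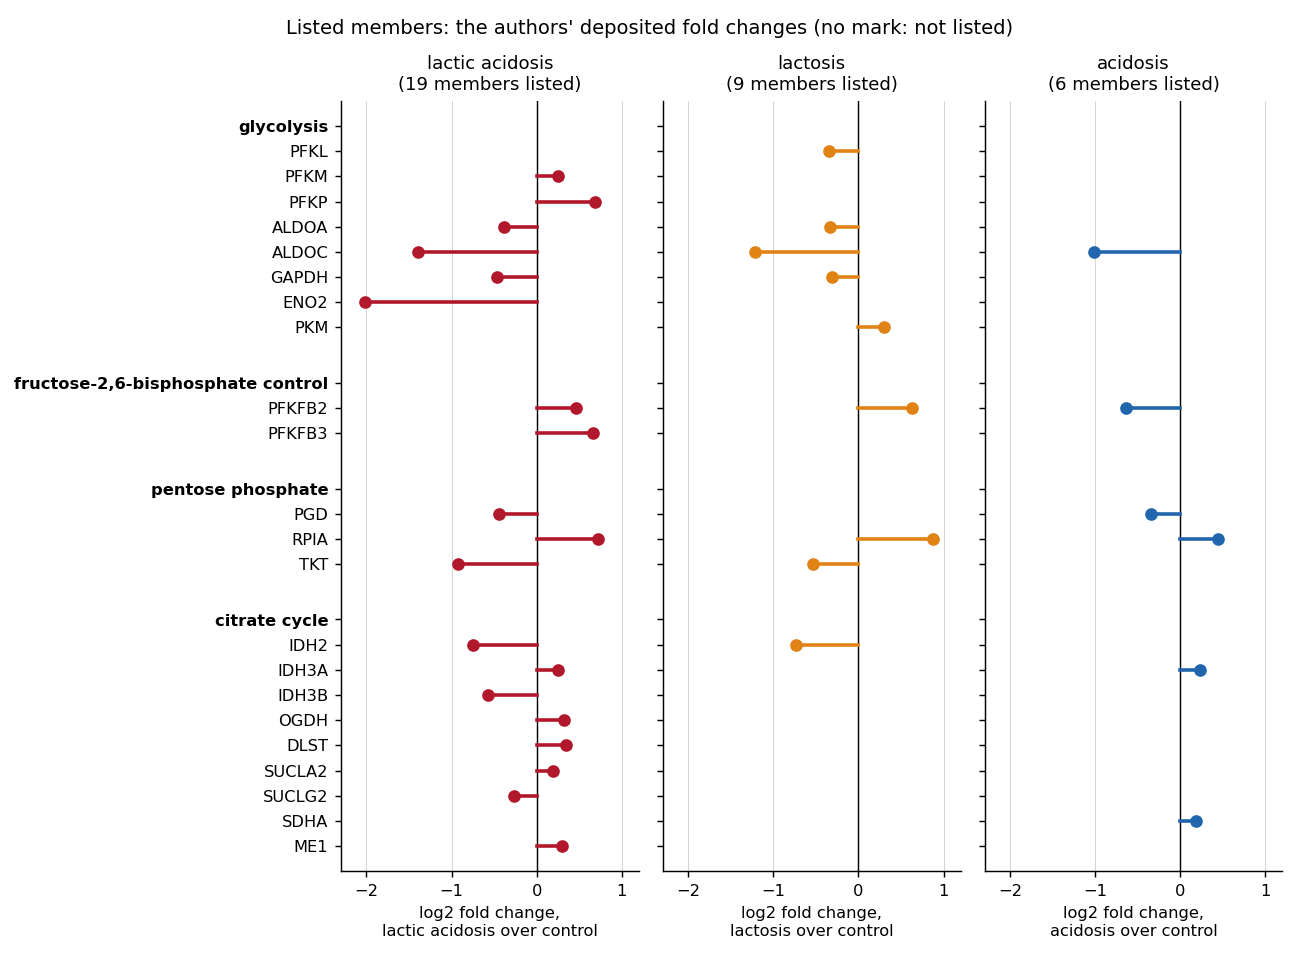
The authors' deposited log2 fold change of each listed member, treated over control, by pathway (rows) in lactic acidosis, lactosis and acidosis; a row without a mark was not listed in that table. ALDOC lies left of 0 and RPIA right of 0 in all 3 panels, and PFKFB2 lies right of 0 in lactic acidosis and lactosis and left of 0 in acidosis.

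The phosphofructokinase genes encode the subunits that commit the sugar to glycolysis. PFKP, the platelet-type subunit, on chromosome 10 from 3066333 to 3137712 in GRCh38, stood at 246.61, 259.21 and 269.82 in the lactic acidosis libraries, against 97.93, 182.58 and 176.81 in the control libraries. All the lactic acidosis libraries lay above all the control libraries, and control replicate 1 was the lowest by a wide margin. PFKP had 0.68 as its log2 fold change in the authors' deposited table, and by limma the log2 difference was 0.81 ± 0.23 (SE; adjusted p = 0.011). Without control replicate 1 that difference was 0.52.

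PFKM, the muscle-type subunit, stood at 92.97, 98.71 and 93.61 in lactic acidosis, against 55.74, 81.66 and 86.44 in control. The groups did not overlap, but limma did not call PFKM (log2 difference 0.37 ± 0.18 SE, adjusted p = 0.0721), and the authors' deposited table gives 0.25. Its difference was 0.18 without control replicate 1, and it was called without control replicate 3 (0.0296) and with values rescaled to the authors' group means (0.0337). Markers of muscle were higher in 1 library of this group. CKM, the muscle creatine kinase, stood at 0.47, 4.97 and 0.19 in lactic acidosis, against 0.05, 0.13 and 0.14 in control, and ACTA1, the skeletal muscle actin, at 0.43, 19.65 and 0.56, against 0.58, 0.35 and 1.03. The 8 listed of 15 muscle markers summed to 16.9 to 51.6 in lactic acidosis and to 38.3 to 57.8 in control; MB, TNNT3 and TNNI2 were lower in lactic acidosis by the authors' calls. PFKM in the library with the muscle transcripts, 98.71, was close to its other lactic acidosis values, and of the 12 members past limma 7 passed without that library. In lactosis the 5 listed muscle markers summed to 48.1 in replicate 2, where replicates 1 and 3 had 0.47 and 0.53 and control 0.64 to 1.48; all 5 of the members past limma there passed without replicate 2. No muscle marker was listed in acidosis.

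PFKL, the liver-type subunit, was listed in lactosis alone, at 73.8, 71.01 and 75.05 in lactosis libraries, against 72.37, 103.85 and 100.36 in control libraries. The groups overlapped through control replicate 1, and limma gave a log2 difference of -0.31 ± 0.16 (SE; adjusted p = 0.101), with -0.35 in the authors' deposited table. It was called without control replicate 1 (-0.47, adjusted p = 0.0026) and when rescaled (0.00596). PFKP was not in that table, so the subunits could not be set side by side there. Within each library, PFKP per PFKM averaged 2.72 ± 0.139 in lactic acidosis and 2.02 ± 0.242 in control (SD, n = 3 each). This ratio does not depend on the library scale, and the libraries did not overlap, the lowest being 2.63 in lactic acidosis and the highest 2.24 in control.

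PFKFB2 and PFKFB3 encode enzymes that make and remove fructose-2,6-bisphosphate; PFKFB3 has the higher kinase activity of the pair. PFKFB2, on chromosome 1 from 207034366 to 207081024, stood at 8.91, 9.6 and 9.66 in lactic acidosis and at 10.07, 8.65 and 11.97 in lactosis. In acidosis it stood at 5.14, 3.87 and 3.45, and in control at 4.58, 7.16 and 7.58. The libraries of both lactate media lay above all the control libraries, while acidosis replicate 1 lay above control replicate 1. The authors' deposited tables put PFKFB2 over control at 0.46 on the log2 scale with lactic acidosis, 0.63 with lactosis and -0.64 with acidosis.

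By limma the log2 differences of PFKFB2 from control were 0.51 ± 0.18, 0.61 ± 0.20 and -0.52 ± 0.20 (SE), with adjusted p of 0.0254 for lactic acidosis, 0.0215 for lactosis and 0.0352 for acidosis. Without control replicate 1 the lactic acidosis difference was 0.31. The call against control was lost without any single lactic acidosis library (lowest adjusted p = 0.0568 by limma), without lactosis replicate 1 or 3 (0.0605 and 0.0833), and without acidosis replicate 2 or 3 or control replicate 2 or 3 in acidosis (0.0799 to 0.132). In acidosis it was also lost with a pseudocount of 5 (difference -0.32, 0.0648) and with blocked replicate numbers (0.0598). PFKFB3, listed in lactic acidosis alone, stood at 40.01, 42.25 and 40.92 in lactic acidosis, against 15.8, 25.77 and 31.37 in control. The groups did not overlap, and the authors' deposited table puts PFKFB3 at 0.66 on the log2 scale; limma gave a difference of 0.78 ± 0.22 (SE; adjusted p = 0.0113), and 0.51 without control replicate 1. Within a library PFKFB3 per PFKFB2 averaged 4.38 ± 0.127 in lactic acidosis and 3.73 ± 0.363 in control (SD, n = 3 each). The remaining gene of this group in the fixed list, PFKFB4, was in no table. TIGAR, a fructose-2,6-bisphosphatase that is not among the 51, was higher in both lactate media, at 8.54 ± 0.618 in lactic acidosis and 9.28 ± 0.917 in lactosis, against 4.18 ± 0.0721 in control (SD, n = 3 each); its limma log2 differences were 0.88 (adjusted p = 0.000587) and 0.98 (adjusted p = 0.000698). PFKFB1, also on the list and not among the 51, was in no table.

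Aldolase splits fructose-1,6-bisphosphate into a pair of triose phosphates, and ALDOC is the isozyme best known from brain. ALDOC, on chromosome 17 from 28573115 to 28577264, stood at 17.15, 20.68 and 18.36 in lactic acidosis, at 20.64, 17 and 21.92 in lactosis and at 23.09, 24.42 and 20.25 in acidosis. The control libraries stood at 27.75, 58.44 and 53.01. Every treated library lay below every control library, and the control libraries differed more among themselves than the treated ones did. By the authors' deposited tables the log2 fold changes were -1.39, -1.22 and -1.01 in lactic acidosis, lactosis and acidosis. By limma the log2 differences were -1.20 ± 0.25 (adjusted p = 0.00348), -1.12 ± 0.26 (adjusted p = 0.00618) and -0.94 ± 0.23 (adjusted p = 0.00653), each with its SE. ALDOC passed without each library in turn in all 3 comparisons. In acidosis its posterior probability was 0.0223, so a limit of 0.01 would not list it there.

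ALDOA, the main isozyme of most cells, was far more abundant. It stood at 2071.72, 2104.49 and 2200.75 in lactic acidosis and at 2135.76, 2050.74 and 2003.21 in lactosis, against 2147.07, 2780.99 and 2798.37 in control. Lactic acidosis overlapped control through control replicate 1, and neither comparison passed limma (log2 difference -0.27, adjusted p = 0.109, and -0.31, adjusted p = 0.0781), while the authors' deposited tables give -0.38 and -0.34. ALDOA was called in both without control replicate 1 (0.00251 and 0.00394) and when rescaled (0.00404 and 0.00721), and in lactosis with a pseudocount of 5 (0.0491). Of the 75-base windows of ALDOA, 87.5% also occur in a transcript of an overlapping gene, so how its reads were assigned is uncertain. Within a library ALDOC per 100 ALDOA averaged 0.882 ± 0.0878 in lactic acidosis and 0.962 ± 0.131 in lactosis, against 1.76 ± 0.42 in control (SD, n = 3 each), and the treated libraries lay below all control libraries.

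The enzymes below aldolase take the triose phosphates to pyruvate. GAPDH, which makes NADH at the first of these steps, stood at 6439.46, 7664.17 and 7118.97 in lactic acidosis and at 7531.66, 7307.02 and 7401.31 in lactosis, against 7687.97, 9828.69 and 9681.59 in control. Both groups lay below all control libraries, by little where control replicate 1 is concerned. The authors' deposited tables give log2 fold changes of -0.47 and -0.31. Limma called GAPDH in lactic acidosis (log2 difference -0.35, adjusted p = 0.0489) and not in lactosis (-0.28, adjusted p = 0.093); without control replicate 1 it was called in both. In lactic acidosis the call was lost without any one of the other libraries (adjusted p between 0.0718 and 0.174 by limma), with a pseudocount of 0.1 (0.0626) and with blocked replicate numbers (0.0541). In lactosis GAPDH was also called when rescaled (0.00798).

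ENO2, the enolase isozyme known from neurons, on chromosome 12 from 6913745 to 6923698, was the member with the largest fold change in the authors' deposited tables, -2.02 on the log2 scale in lactic acidosis. It stood at 2.37, 3.46 and 2.38 in lactic acidosis, against 4.68, 10.27 and 17.14 in control. The groups did not overlap, and control replicates spread widely, with a coefficient of variation of 58.3%. Limma gave -1.50 ± 0.35 (SE; adjusted p = 0.00552) on the log2(value + 1) scale, which understates changes of low genes; with a pseudocount of 5 it was -0.94. The authors' posterior probability for ENO2 was 0.0375, so a limit of 0.01 would not list it. PKM, pyruvate kinase, was listed in lactosis alone, at 2222.82, 2054.3 and 2311.73 in lactosis, against 1318.51, 1930.25 and 2059.82 in control. The groups overlapped by a small margin and limma did not call PKM (log2 difference 0.34, adjusted p = 0.108). The PKM difference was 0.14 without control replicate 1, and it was called without control replicate 3 (0.0475) and when rescaled (0.0148). The other 7 glycolytic members, HK1, HK2, GPI, TPI1, PGK1, PGAM1 and ENO1, were in no table, so neither hexokinase nor the most abundant enolase could be followed. Among further isozymes, HK3, HKDC1, PGAM2, ENO3 and PKLR were not listed.

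**Figure D2:**
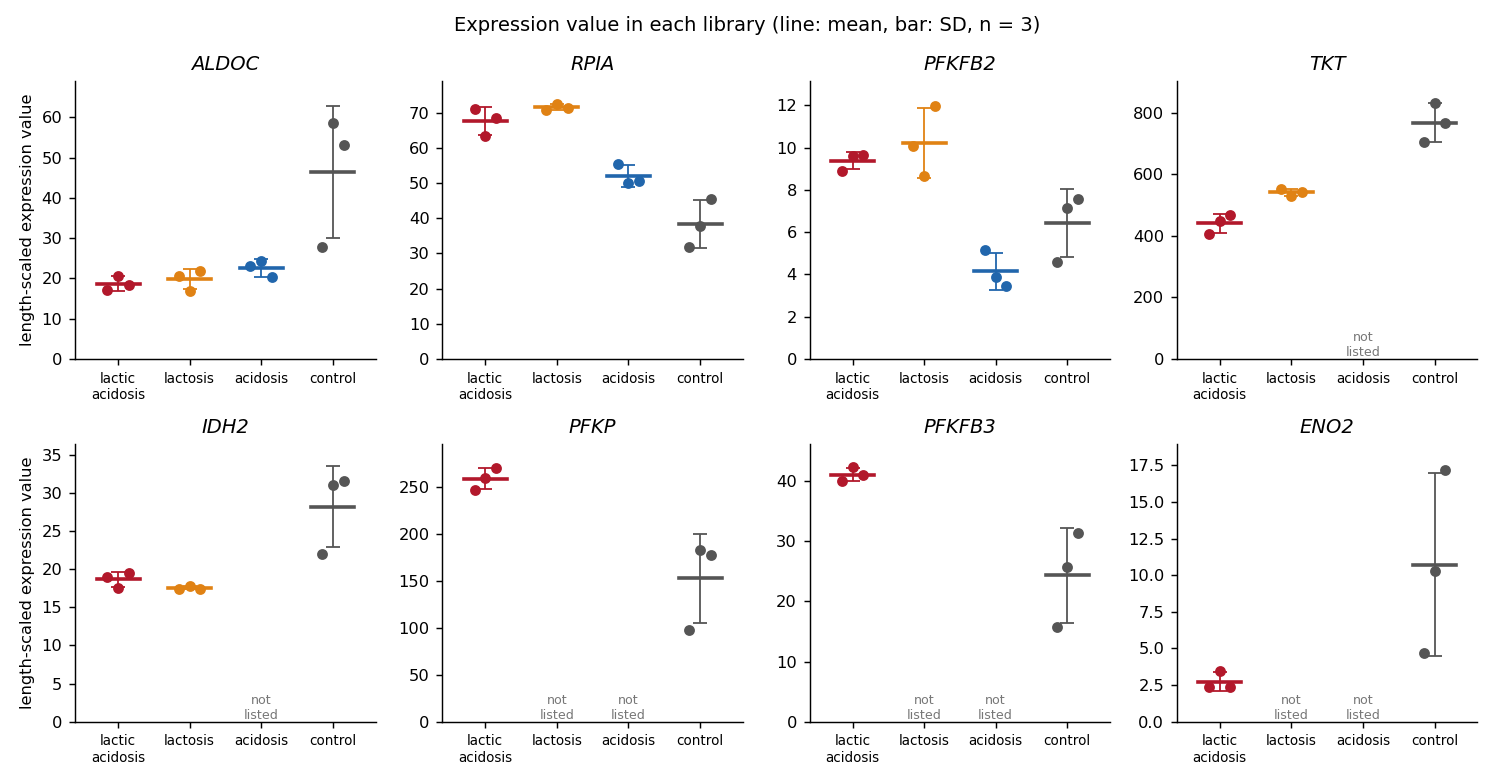
Length-scaled expression value (linear axis from 0) of 8 members in each library of lactic acidosis, lactosis, acidosis and control; points are libraries, lines the mean and bars the SD (n = 3). ALDOC lies at or below 24.42 in every treated library and at or above 27.75 in control, and PFKFB2 is lower in the acidosis libraries, 3.45 to 5.14, than in the libraries of both lactate media, 8.65 to 11.97.

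In the pentose phosphate pathway the 3 listed members moved in different directions. RPIA, the isomerase that makes ribose-5-phosphate for nucleotides, on chromosome 2 from 88691644 to 88750935, stood at 71.1, 63.44 and 68.4 in lactic acidosis, at 70.86, 72.5 and 71.33 in lactosis and at 55.51, 49.93 and 50.67 in acidosis. The control libraries stood at 31.77, 37.92 and 45.49, all below every treated library. By the authors' deposited tables the log2 fold changes were 0.72, 0.88 and 0.44. By limma RPIA rose by 0.81 ± 0.16 (adjusted p = 0.00227) in lactic acidosis, 0.90 ± 0.16 (adjusted p = 0.00196) in lactosis and 0.44 ± 0.17 (adjusted p = 0.039) in acidosis, on the log2 scale with SE. In acidosis the RPIA call was lost without any one acidosis library or without control replicate 2 (adjusted p between 0.0985 and 0.113 by limma), with a pseudocount of 0.1 (0.0534) and with blocked replicate numbers (0.1).

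TKT, transketolase of the non-oxidative arm, on chromosome 3 from 53224707 to 53256052, stood at 406.95, 447.09 and 469.19 in lactic acidosis and at 551.13, 528.96 and 543.62 in lactosis, against 704.26, 830.63 and 768.5 in control. No libraries overlapped between any pair of these groups, with lactic acidosis lowest, lactosis next and control highest. The log2 fold changes of TKT over control were -0.92 and -0.54 in the authors' deposited tables, and limma gave -0.80 ± 0.13 (adjusted p = 0.00125) and -0.50 ± 0.13 (adjusted p = 0.0106). TKT was not listed in acidosis.

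PGD, the dehydrogenase of the oxidative arm that yields NADPH, stood at 103.16, 109.33 and 107.56 in lactic acidosis and at 113.54, 103.99 and 101.25 in acidosis, against 113.56, 142.29 and 149.24 in control. Both treated groups lay below control, acidosis by 0.02 at the nearest libraries. The authors' deposited tables give log2 fold changes of -0.44 and -0.35, and limma did not call PGD in either (adjusted p = 0.0556 and 0.083). It was called in both without control replicate 1 (0.00125 and 0.0072) and when rescaled (0.00175 and 0.00511), and in lactic acidosis with a pseudocount of 5 (0.0341). Within a library RPIA per 100 TKT averaged 15.4 ± 1.8 in lactic acidosis and 13.2 ± 0.416 in lactosis, against 5.0 ± 0.797 in control. RPIA per 100 PGD averaged 63.5 ± 5.45 in lactic acidosis and 49.0 ± 1.0 in acidosis, against 28.4 ± 1.98 in control (SD, n = 3 each). In all these ratios the treated libraries lay above every control library. That follows from RPIA lying above, and TKT and PGD below, all control libraries, so the ratios add no further evidence. PGLS, RPE and TALDO1 were in no table. Outside the 51, H6PD was listed in acidosis, at -0.46 on the log2 scale in the authors' deposited table, and did not pass limma (adjusted p = 0.0689); TKTL1 was not listed.

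The sequences before the starts of ALDOC, RPIA, TKT and IDH2, the last described with the citrate cycle, are shown because these are the members listed in the same direction in at least 2 tables and called by limma each time, with 1 start in RefSeq. They are the 250 bases upstream of the RefSeq start in GRCh38.p14, 5′ to 3′ on the strand of the gene, at chr17:28576896-28577145 on the minus strand for ALDOC, chr2:88691423-88691672 on the plus strand for RPIA, chr3:53256023-53256272 on the minus strand for TKT and chr15:90100622-90100871 on the minus strand for IDH2. The RefSeq starts differ from the ends of the GENCODE gene spans given in the text. By those spans the IDH2 and ALDOC windows lie inside their genes, and the RPIA and TKT windows overlap theirs in part. The IDH2 window is therefore not the sequence before the GENCODE start of that gene. Capitals mark ACGTG or GCGTG on either strand. This is the core of the element bound by hypoxia-inducible factors, which are known to act on many glycolytic genes.
ALDOC: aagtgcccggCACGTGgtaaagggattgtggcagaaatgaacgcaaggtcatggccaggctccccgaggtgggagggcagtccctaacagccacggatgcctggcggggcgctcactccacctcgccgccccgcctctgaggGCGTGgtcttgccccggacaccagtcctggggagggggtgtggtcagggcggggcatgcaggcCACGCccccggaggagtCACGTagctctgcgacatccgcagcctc
RPIA: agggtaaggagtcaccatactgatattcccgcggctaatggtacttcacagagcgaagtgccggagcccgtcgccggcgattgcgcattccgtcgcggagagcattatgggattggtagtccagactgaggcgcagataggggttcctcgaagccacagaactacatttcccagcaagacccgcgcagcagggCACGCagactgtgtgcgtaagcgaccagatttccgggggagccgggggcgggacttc
TKT: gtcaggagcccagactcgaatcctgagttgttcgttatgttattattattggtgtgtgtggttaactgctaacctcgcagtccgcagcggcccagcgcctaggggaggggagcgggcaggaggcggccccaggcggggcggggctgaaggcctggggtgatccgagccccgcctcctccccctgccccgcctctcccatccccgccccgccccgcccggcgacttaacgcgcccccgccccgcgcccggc
IDH2: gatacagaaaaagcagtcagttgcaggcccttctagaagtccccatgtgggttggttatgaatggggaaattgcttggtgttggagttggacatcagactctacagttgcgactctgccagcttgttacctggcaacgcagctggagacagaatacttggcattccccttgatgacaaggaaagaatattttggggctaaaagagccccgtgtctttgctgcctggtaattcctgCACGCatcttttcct
The ALDOC window held 3 matches to ACGTG, 2 of which overlap in the palindrome CACGTG, and 2 matches to GCGTG. The RPIA window held 1 match to GCGTG, and the TKT window held none of either. The IDH2 window held 0 matches to ACGTG and 1 match to GCGTG. Over 35116 RefSeq promoter entries, 43.2% of windows of this length held ACGTG or GCGTG on either strand, 18.5% ACGTG, 32.2% GCGTG and 6.34% CACGTG. Of the 51 members, 48 had a promoter entry, and the first entry held a core in 30. A match is a description of the letters and says nothing of binding in these cells.

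No member grouped as pyruvate entry was listed. These were PDHA1, PDHB, DLAT and DLD of the pyruvate dehydrogenase complex, PC, which makes oxaloacetate, and PCK2, which makes phosphoenolpyruvate in the mitochondrion. PDHX, the E3-binding subunit and not among the 51, was listed in lactic acidosis, at 48.9 ± 3.34 against 37.6 ± 4.72 in control (SD, n = 3 each), and passed limma (log2 difference 0.38, adjusted p = 0.0328). PCK1, the cytosolic partner of PCK2 and also outside the 51, was not listed.

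The citrate cycle genes were listed mainly in lactic acidosis, 5 higher and 3 lower, and 2 passed limma in each direction. Of all genes listed in lactic acidosis, 58.9% were higher and 41.1% lower, and 86.1% passed limma. Within the cycle, the 2 members lower by limma were the isocitrate dehydrogenase genes IDH2 and IDH3B. IDH2, the mitochondrial NADP-linked enzyme, on chromosome 15 from 90083045 to 90102504, stood at 19, 17.49 and 19.44 in lactic acidosis and at 17.46, 17.85 and 17.46 in lactosis, against 22.02, 31.08 and 31.51 in control. All libraries of both lactate media lay below all control libraries. The authors' deposited tables give log2 fold changes of -0.75 and -0.73, and limma gave -0.56 ± 0.16 (adjusted p = 0.0132) and -0.63 ± 0.16 (adjusted p = 0.00973). In lactic acidosis the IDH2 call was lost without lactic acidosis replicate 2 or control replicate 2 (adjusted p = 0.0544 and 0.0501 by limma).

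The subunits of the NAD-linked isocitrate dehydrogenase of the cycle did not move together. IDH3B, a regulatory subunit, stood at 107.25, 110.2 and 106.01 in lactic acidosis, against 144.78, 149.24 and 150.87 in control. The groups did not overlap, and the control coefficient of variation, 2.13%, was the lowest among the members of that table. It is for values before the fitted library weights, which were 1, 0.799 and 0.774 for control replicates 1, 2 and 3. With these weights the control values of IDH3B lie further apart. The authors' deposited table gives -0.57 for IDH3B on the log2 scale, and limma gave -0.46 ± 0.12 (SE; adjusted p = 0.00853). IDH3A, the catalytic subunit, stood at 49.28, 52.98 and 46.89 in lactic acidosis and at 47.92, 44.49 and 44.27 in acidosis, against 30.22, 41.36 and 45.51 in control. Lactic acidosis lay above control and acidosis overlapped it, and limma called neither (adjusted p = 0.0683 and 0.209), with 0.25 and 0.23 in the authors' deposited tables. Without control replicate 1 the IDH3A differences were 0.19 and 0.07, against 0.36 and 0.24 with it. IDH3A was called when rescaled (0.0319 and 0.0442) and, in lactic acidosis, without control replicate 3 (0.0258). Exons of genes on the other strand cover 38.9% of the exon bases of IDH3A, and whether strand was used in counting is not stated, so reads of those genes cannot be told apart from its own. Within a library IDH3A per 100 IDH3B averaged 46.1 ± 1.96 in lactic acidosis and 26.3 ± 4.81 in control (SD, n = 3 each), without overlap. That separation follows from IDH3A lying above and IDH3B below all control libraries, and adds no further evidence. The remaining subunit gene, IDH3G, was in no table.

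**Figure D3:**
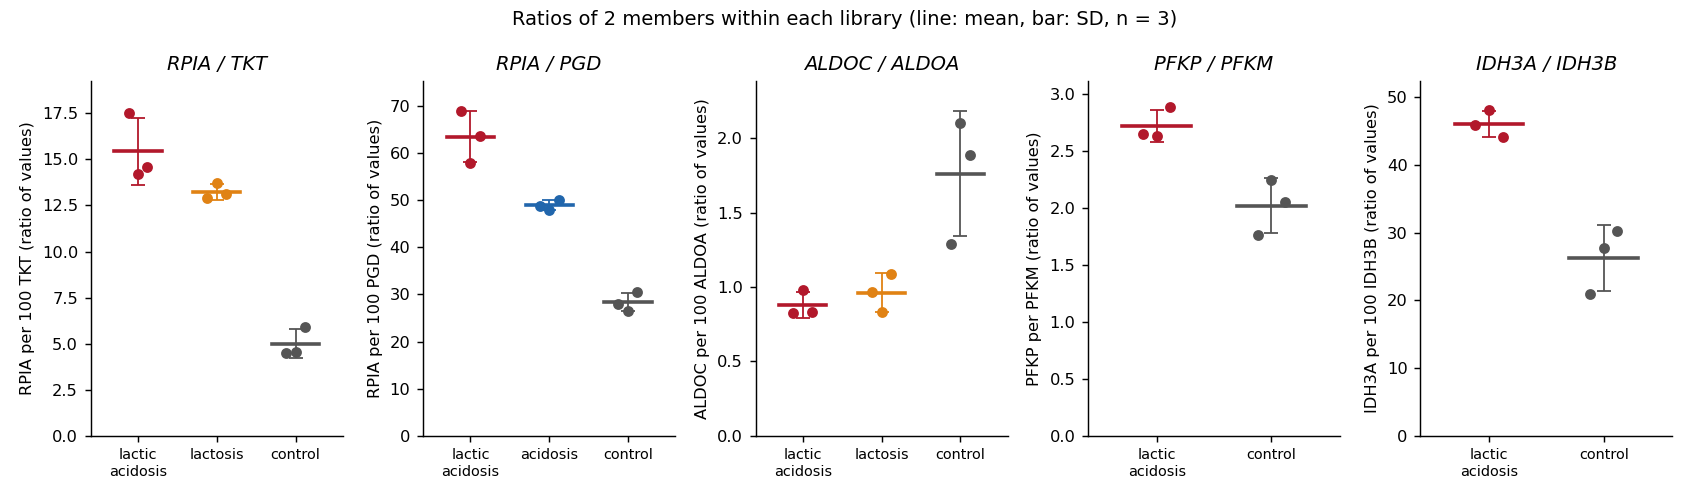
Ratios of the values of 2 members within each library (linear axes from 0), which do not depend on the library scale; points are libraries, lines the mean and bars the SD (n = 3), for the groups whose tables list both genes. RPIA per 100 TKT lies between 12.9 and 17.5 in the libraries of the lactate media and between 4.51 and 5.92 in control, and IDH3A per 100 IDH3B between 44.2 and 48.1 in lactic acidosis and between 20.9 and 30.2 in control.

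Past isocitrate, OGDH and DLST, the first and second enzymes of the 2-oxoglutarate dehydrogenase complex, were both listed higher in lactic acidosis. OGDH stood at 78.16, 79.61 and 77.57 in lactic acidosis, against 42.49, 66.7 and 68.25 in control, and DLST at 143.29, 162.73 and 148.97, against 81.84, 116.58 and 136.7. Neither gene overlapped between the groups. Limma called DLST (log2 difference 0.47 ± 0.19 SE, adjusted p = 0.0427) and not OGDH (0.43 ± 0.19 SE, adjusted p = 0.0531); the authors' deposited table gives 0.35 and 0.32. The OGDH difference was 0.21 without control replicate 1, where it was called (0.0426), as it was without control replicate 3 (0.0238), when rescaled (0.0205) and with blocked replicate numbers (0.0305). The DLST call was lost without any one lactic acidosis library or control replicate 2 (adjusted p between 0.07 and 0.127 by limma) and with a pseudocount of 0.1 (0.0591), and without control replicate 1 the difference was 0.26.

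The nucleotide-specific subunits of succinyl-CoA ligase were listed in opposite directions, with SUCLA2, of the ATP-forming enzyme, at 0.19 and SUCLG2, of the GTP-forming enzyme, at -0.27 on the log2 scale in the authors' deposited table. SUCLA2 averaged 54.0 ± 2.8 in lactic acidosis and 44.0 ± 6.96 in control, and SUCLG2 averaged 36.7 ± 4.07 in lactic acidosis and 41.0 ± 6.54 in control (SD, n = 3 each). Neither passed limma (adjusted p = 0.0836 and 0.388), and the groups overlapped for SUCLG2. SUCLA2 was called without control replicate 3 (0.0299), and its difference was 0.18 without control replicate 1 and 0.19 when rescaled, against 0.30. The SUCLG2 difference ran from -0.28 without control replicate 1, where it was called (0.0287), to -0.07 without control replicate 2, and it was called when rescaled (-0.26, 0.0299). SDHA, the flavoprotein of succinate dehydrogenase, was listed in acidosis alone, at 319.73, 310 and 308.68 in acidosis, against 233.4, 288.21 and 303.01 in control. The groups did not overlap, and limma did not call it (log2 difference 0.19, adjusted p = 0.258); the difference was 0.08 without control replicate 1. Of the windows of SDHA, 7.5% also occur in its pseudogenes or other transcripts.

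ME1, the cytosolic malic enzyme that yields NADPH, stood at 51.88, 57.27 and 49.51 in lactic acidosis, against 37.32, 38.88 and 42.6 in control. The groups did not overlap, and ME1 passed limma (log2 difference 0.41 ± 0.13 SE, adjusted p = 0.0184), with 0.30 in the authors' deposited table. The ME1 call was lost without lactic acidosis replicate 1 or 2 or control replicate 2 (adjusted p = 0.057, 0.0763 and 0.0542 by limma). The other 12 members of the cycle, CS, ACO1, IDH1, IDH3G, SUCLG1, SDHB, SDHC, SDHD, FH, MDH1, MDH2 and ME2, were in no table. Outside the 51, OGDHL and ME3 were not listed.

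The treatments were then compared with each other over the genes listed in both tables, which sets the combined medium beside each single one and the single ones beside each other. These fits used no control library, but the genes were listed on these same treated libraries, so the fits are not independent of that listing. Lactic acidosis against lactosis could be tested for 7 members, of which TKT alone passed, where 20.4% of the 2344 shared genes passed, 15.7% higher and 4.78% lower. TKT was lower in lactic acidosis than in lactosis by limma (log2 difference -0.30 ± 0.08 SE, adjusted p = 0.0296), and the libraries did not overlap. That call was lost without lactic acidosis replicate 1 or 2 or lactosis replicate 1 (adjusted p = 0.124, 0.0695 and 0.11 by limma), and when replicate numbers were blocked (0.0832). The 95% intervals of the other 6, ALDOA, ALDOC, GAPDH, RPIA, PFKFB2 and IDH2, lay within -0.34 and 0.25 on the log2 scale, so differences up to these sizes were not resolved.

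Lactic acidosis against acidosis could be tested for 5 members, and 2 passed, where 48.8% of the 1304 shared genes passed, 38.7% higher and 10.0% lower. PFKFB2 was higher in lactic acidosis than in acidosis by 1.02 ± 0.11 on the log2 scale (SE; limma adjusted p = 0.000116), and RPIA by 0.37 ± 0.08 (adjusted p = 0.00398). ALDOC had a log2 difference of -0.26 (95% interval -0.47 to -0.04) and an adjusted p of 0.051 by limma; it passed under 6 of 11 alternatives, among them values rescaled to the authors' group means and leaving out lactic acidosis replicate 2 or acidosis replicate 3. PGD had a difference of 0.01 (95% interval -0.16 to 0.18) and IDH3A of 0.12 (-0.05 to 0.30), and neither passed.

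Lactosis against acidosis could be tested for the 3 members in all tables, and 2 passed, where 23.9% of the 1173 shared genes passed, 16.4% higher and 7.5% lower. PFKFB2 was higher in lactosis than in acidosis by 1.13 ± 0.14 on the log2 scale (SE; limma adjusted p = 0.00179) and RPIA by 0.45 ± 0.07 (adjusted p = 0.00364). ALDOC differed by -0.18 (95% interval -0.44 to 0.07). For PFKFB2 and RPIA the libraries of both lactate media lay above all acidosis libraries, and both passed under each alternative tried in both comparisons, each library left out in turn included.

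**Figure D4:**
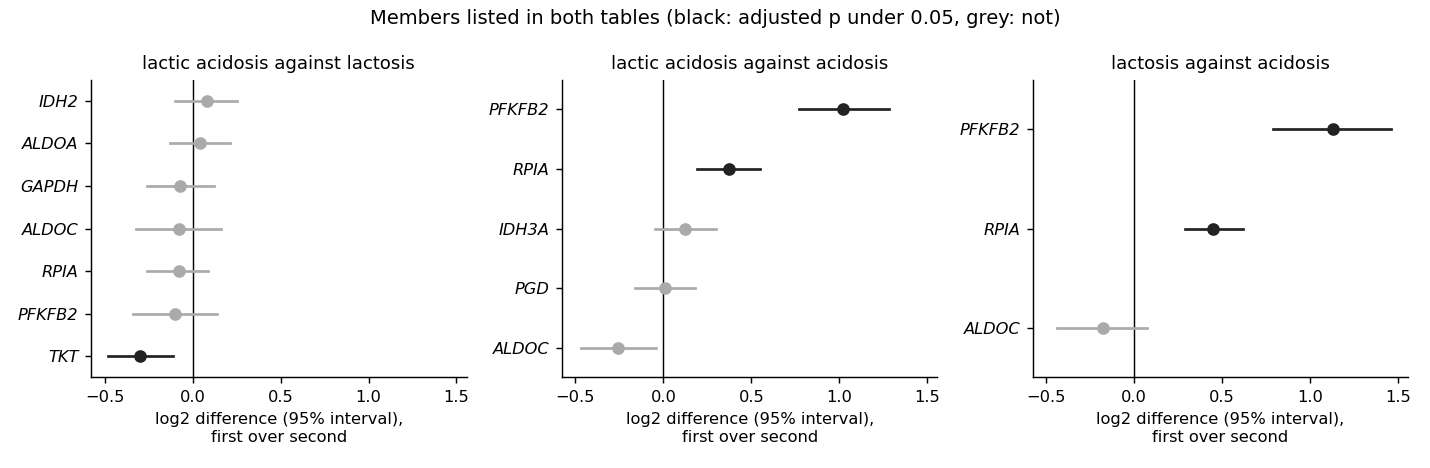
Log2 difference between treatments (points) with the 95% interval of limma (lines) for the members listed in both tables of a pair; black marks an adjusted p under 0.05 and grey the others. PFKFB2 lies at 1.02 and 1.13 and RPIA at 0.37 and 0.45 against acidosis, while lactic acidosis and lactosis differ by an adjusted p under 0.05 in TKT alone.

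Across the 3 treated groups the order of levels could be read for the members in all tables. RPIA was highest in lactosis, 71.6 ± 0.845, and in lactic acidosis, 67.6 ± 3.89, which did not pass against each other (limma adjusted p = 0.475), then in acidosis, 52.0 ± 3.03, and lowest in control, 38.4 ± 6.87 (SD, n = 3 each). PFKFB2 had the order lactosis, 10.2 ± 1.67, lactic acidosis, 9.39 ± 0.417, control, 6.44 ± 1.62, and acidosis, 4.15 ± 0.88; the first pair did not pass against each other (limma adjusted p = 0.513). ALDOC averaged 22.6 ± 2.13 in acidosis, 19.9 ± 2.55 in lactosis and 18.7 ± 1.79 in lactic acidosis, none of which passed against another, and 46.4 ± 16.4 in control.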

How the data were processed

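Per the labels, poly(A) RNA of 12 KKU-213A libraries was read from 1 end over 75 nt. STAR and hg38 are named in the submitters' processing notes; the counting tool is not given in the sources used here. Each of the 3 tables has the column names of EBSeq, per the file headers. The deposited per-library values are a signal, length-scaled expression (TPM or FPKM, not stated); the authors' group means are a signal too, size-factor-normalized counts. The authors' fold is a ratio with control on top, inverted here. The deposited posterior probabilities of equal expression were at most 0.05. Control values were equal in all tables (largest difference 0).

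Members and lists were chosen with earlier results of these data known. Per-library values were tested by limma 3.58.1 (R 4.3.3) on log2(value + 1), unfiltered, over every gene of a table, or of both tables between treatments, with Benjamini-Hochberg adjustment at 0.05, and the scripts were tested on simulated data. Between treatments, genes had to be listed in both tables. Fitted library weights rescaled values to the authors' group means as an alternative; others were pseudocounts of 0.1 and 5, a mean value of at least 1, a block for the replicate number, and each library left out in turn. Every member was accounted for. Per-library values were given for members in 2 or 3 tables, for those with a log2 fold change of at least 0.5 in size and for isozyme partners. Outside that rule, and chosen after their values were seen, PKM, OGDH, DLST, SDHA and ME1 were given per-library values too. The ratios within libraries and the printed promoters were also chosen after values were seen. Positions are from GENCODE release 29; 40 windows of 75 bases per gene were searched in its transcripts. Python 3.11.15, numpy 2.4.6, pandas 2.3.3 and matplotlib 3.10.9 were used. A few genes of the lists outside the 51 are not reported here.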

Additional observations from a re-analysis of the deposited data

Results flagged for a closer look

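PFKFB2 is singled out because its direction against control was opposite in the lactate media and in the acidosis medium, and the direct tests between treatments passed. It was higher in lactic acidosis than in acidosis by 1.02 on the log2 scale (limma adjusted p = 0.000116; all 3 lactic acidosis libraries above all 3 acidosis libraries) and higher in lactosis than in acidosis by 1.13 (limma adjusted p = 0.00179; likewise 3 above 3). The authors' deposited tables give PFKFB2 a mean normalized count of 489 in lactic acidosis, against 355 in control, 490 in lactosis, against 317 in control, and 223 in acidosis, against 348 in control, each on the scale of its own table. Exons of another gene on the other strand, YOD1, cover 3.09% of its exon bases. PFKFB2 was picked by its opposite listings on these same treated libraries, so the direct tests add no independent evidence. None of its calls against control was firm. In acidosis the groups overlapped, as acidosis replicate 1, 5.14, lay above control replicate 1, 4.58. The acidosis call was also lost in the settings given above (limma adjusted p = 0.0598 to 0.132). In lactic acidosis the call was lost without any single lactic acidosis library (limma adjusted p = 0.0568 to 0.0769). The lactosis call was lost without lactosis replicate 1 or 3 (limma adjusted p = 0.0605 and 0.0833).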

How the results depend on the processing

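With a posterior probability under 0.01, 15 of 19, 9 of 9 and 4 of 6 members of the lactic acidosis, lactosis and acidosis tables stayed listed. The others were PFKM, ENO2, OGDH and ME1, none, and ALDOC and IDH3A. Of all listed genes, 3711 of 4279, 2631 of 3087 and 1359 of 1721 stayed. With values rescaled to the authors' group means, members past limma numbered 18, 9 and 5 for these tables, against 12, 5 and 3, and all those first called were kept. Nearly every listed gene passed in those fits too, 4169 of 4279, 2999 of 3087 and 1679 of 1721, so the members' gain was not particular to them. That rescaling takes its scale from the deposited means of the listed genes themselves. A call gained by it, here or for a single member above, is therefore not independent of the listing. As a count of all single-member differences against their alternatives, 461 kept direction and side of the threshold, 38 lost and 34 gained a call, and 6 changed sign, none of them called. These were ALDOA in lactic acidosis against lactosis, -0.04 rescaled; PGD in lactic acidosis against acidosis, -0.09 rescaled and -0.01, -0.01 and -0.03 without lactic acidosis replicate 2, acidosis replicate 2 and acidosis replicate 3 (leave-one-out range -0.03 to 0.06); and PFKFB2 in lactic acidosis against lactosis, 0.01 without lactosis replicate 3 (leave-one-out range -0.21 to 0.01). Leaving out each library gave 7 to 16 members with lactic acidosis (7 without its replicate 2), 4 to 8 with lactosis (8 without control replicate 1) and 1 to 4 with acidosis (1, ALDOC, without acidosis replicate 2 or 3 or control replicate 2). Over all listed genes, 2624 to 4064, 1423 to 2589 and 425 to 1251 passed in the same fits. Between treatments, leaving out each library gave 0 to 1 members for lactic acidosis against lactosis, 2 to 3 for lactic acidosis against acidosis, and 2 throughout for lactosis against acidosis.

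With the replicate number as a block, 12, 5 and 1 members passed against control, and 0, 3 and 2 between treatments. Over all listed genes, 3682, 2138 and 656 passed against control with the block, against 3684, 2398 and 1033 without it. In lactic acidosis GAPDH lost its call and OGDH gained one, in acidosis RPIA and PFKFB2 lost theirs, TKT lost its call between lactic acidosis and lactosis, and ALDOC gained one between lactic acidosis and acidosis. The numbers are not stated to pair libraries, and correlations of deviations between same-numbered libraries ran from -0.387 to 0.217. Fewer libraries make the test weaker by construction; the cause of other moves was not tested. Depth is unknown, and genes not listed limit every count.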

Other observations

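Genes at the borders of these pathways were counted from lists that are not among the members. Of 13 regulators and carriers of pyruvate, 3 were listed with lactic acidosis, 2 with lactosis and 1 with acidosis, all lower, where 41.1%, 40.7% and 38.9% of all listed genes were lower. All passed limma, as did 86.1%, 77.7% and 60.0% of all listed genes. PDP1, the phosphatase that activates pyruvate dehydrogenase, averaged 41.1 ± 3.19 with lactic acidosis, 30.2 ± 3.62 with lactosis and 47.0 ± 7.79 with acidosis, against 71.8 ± 6.27 in control (SD, n = 3 each). PDK2, a kinase that inhibits the same enzyme, averaged 6.57 ± 0.482 in lactic acidosis and 8.76 ± 1.28 in lactosis, against 15.1 ± 0.813 in control. MPC1, a subunit of the mitochondrial pyruvate carrier, averaged 26.6 ± 2.54 in lactic acidosis and 47.6 ± 6.28 in control.

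Of 20 genes that supply or drain the citrate cycle, 9 were listed with lactic acidosis, 5 higher and 4 lower. Lactosis had 4, 2 higher and 2 lower, and acidosis had 3, 2 higher and 1 lower. Of all genes listed in these tables, 58.9%, 59.3% and 61.1% were higher, and 86.1%, 77.7% and 60.0% passed limma. SLC25A10, the mitochondrial dicarboxylate carrier, averaged 61.5 ± 4.42, 62.3 ± 2.71 and 64.7 ± 2.27 in lactic acidosis, lactosis and acidosis, against 46.2 ± 8.05 in control (SD, n = 3 each), and passed each time (limma adjusted p = 0.0339, 0.033 and 0.0273). Of 16 genes of side branches of hexose and triose metabolism, 2 were listed in lactic acidosis and 3 in lactosis, all lower; PSPH, the last enzyme of serine synthesis, averaged 39.5 ± 1.84 in lactic acidosis and 27.7 ± 1.65 in lactosis, against 70.9 ± 12.7 in control. Of 9 glucose transporters, 3 were listed lower in lactic acidosis and 1, SLC2A3, in acidosis, at 1.11 ± 0.265 against 2.75 ± 0.816 in control (limma adjusted p = 0.00504). SLC2A4, the insulin-responsive transporter, averaged 0.34 ± 0.105 in lactic acidosis and 1.51 ± 0.376 in control, and SLC2A6 5.63 ± 1.31 and 10.5 ± 0.767 (SD, n = 3 each). Neither overlapped between the groups, and both passed limma (adjusted p = 0.00124 and 0.00285). Of all genes in that table, 90.2% did not overlap and 86.1% passed. SLC2A4 was near the floor, with an authors' mean normalized count of 9.21 in lactic acidosis and 45.5 in control. SLC2A1, the main glucose transporter of many tumour cells, stood at 133.6, 150.76 and 145.4 in lactic acidosis, against 137.16, 221.94 and 246.2 in control, where the groups overlapped and limma did not call it (adjusted p = 0.0689).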
